A study of Mus musculus with 6 samples.

Results

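The genes examined here were 37 genes of the unfolded protein response of the endoplasmic reticulum (ER) and of the heat shock response, out of 60354 features counted in mouse brain. They were chosen by symbol: ER chaperones and folding enzymes, the sensors, transcription factors and degradation factors of the ER stress response together with the ubiquitin ligase Rnf13, and the heat shock proteins with their transcription factor Hsf1. All 37 were matched by Ensembl identifier to GENCODE M21 (build GRCm38), and all 37 passed the filter on low counts. They were divided into an ER class of 25 genes and a heat shock class of 12 genes.

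RNA-seq was performed on the whole brains of 3 control mice, numbered 2, 5 and 10, and of 3 PLDP mice, numbered 17, 22 and 26. PLDP is a porcine liver product digested with a protease. All mice were C57BL/6NCrSlc males, 16 weeks old when feeding began. Over 16 weeks, PLDP made up 20% of the food of the PLDP mice, which was otherwise a modified AIN-93M diet, and the control mice received a modified AIN-93M diet lacking PLDP, with its calories matched. Both groups then went through the same behavioral tests, during which PLDP was not given, and RNA was taken after the last test. The comparison asks which genes differ in the brain after long-term ingestion of PLDP. Libraries held between 18797061 and 23938729 counts per mouse, and values are given as counts per 1000000 counts (CPM) after TMM scaling. Of 18580 features tested, 1598 had an unadjusted p under 0.05 in edgeR's quasi-likelihood test, the threshold called here "the test". The p adjusted by Benjamini-Hochberg was under 0.05 for 6 features (0.0323% of those tested).

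The ER folds proteins that enter the secretory pathway. When unfolded proteins accumulate there, the sensors Atf6, Ern1 (IRE1α) and Eif2ak3 (PERK) act through transcription factors such as Xbp1, Atf4 and Ddit3 (CHOP) to raise ER chaperones and to send misfolded proteins back to the cytosol for degradation. In the cytosol, Hsf1 drives the genes of the HSP70, HSP90, HSP40 and small heat shock proteins when proteins unfold there. In neurons, Hspa8, Hsp90ab1 and Hsp90aa1 are abundant without any stress, although Hsp90aa1 is also raised by it.

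In the PLDP mice, 4 of the 37 genes rose by the test (10.8%, against 4.91% of all features tested). They were the ER chaperones Calr and Hyou1, the transcription factor Xbp1 and the ER ubiquitin ligase Syvn1, with differences of between 7.34% and 11.3%. Rnf13 fell by 14.0% and was the 1 gene lower by the test (2.70%, against 3.69% of all features). The 37 genes, Rnf13 among them, were chosen with earlier results of these data known, so neither share is an independent result. No gene of the heat shock class passed the test. In edgeR's quasi-likelihood test, none of the 37 genes had an adjusted p under 0.05 over all features tested, and the lowest was that of Rnf13, 0.0785. Under some of the alternatives given below, the adjusted p of Rnf13 was under 0.05. For 1 gene, the smallest two-sided p that exact permutation of 3 and 3 mice can reach is 0.1.

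**Figure D1:**
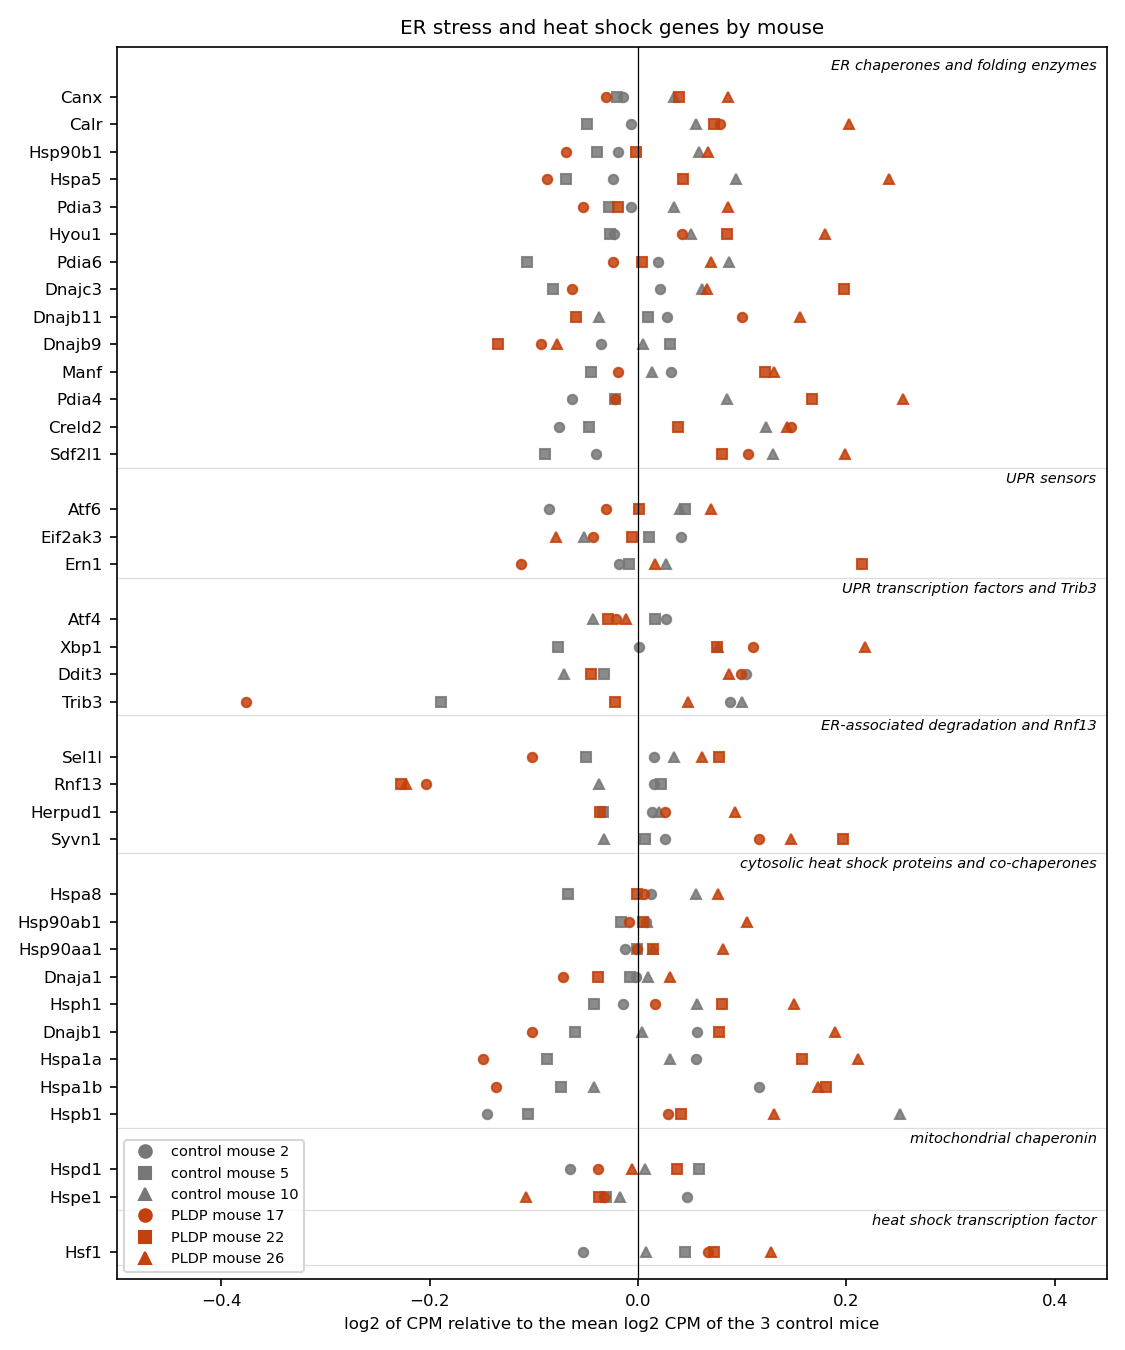
Each row is 1 of the 37 genes, grouped by role and ordered by mean CPM, and each point is 1 mouse (gray, control; orange, PLDP). The horizontal axis is log2 CPM minus the mean log2 CPM of the 3 control mice. The PLDP points of Rnf13 sit together on the left, and PLDP mouse 26 is the highest mouse for 21 genes.

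Regulatory sequence of the promoters is shown first, because the response elements in it belong to the definition of both responses. RefSeq windows (GRCm38.p6, from 250 bases before to 50 bases after the start) were found for 30 of the 37 genes, 22 of the ER class and 8 of the heat shock class. Windows for Atf6, Manf, Hyou1, Hspa8, Hsp90aa1, Hsp90ab1 and Hsf1 were not found. The ER stress response element (ERSE), the letters CCAAT followed after 9 bases by CCACG on either strand, was present in 8 of the 22 ER genes, in 0 of the 8 heat shock genes and in 0.119% of 32817 windows of this length. The 8 genes were Hspa5, Hsp90b1, Calr, Canx, Pdia6, Dnajc3, Creld2 and Syvn1, and Hsp90b1 held 2 matches. The heat shock element (HSE), the letters GAA, TTC and GAA with 2 bases between them on either strand, was present in Hspd1, Hspe1 and Hsph1, in 0 of the 22 ER genes and in 0.603% of all windows. A match describes the letters of the window and does not show binding.

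Stretches are printed for Calr and Syvn1, the called genes with an ERSE, from 200 to 11 bases before the start on the strand of each gene, with both ends of the ERSE in capitals. In Calr the element lies on the opposite strand, so that CCACG reads as CGTGG and CCAAT as ATTGG. The Calr stretch is chr8:84846942-84847131 on the minus strand, and the Syvn1 stretch is chr19:6046376-6046565 on the plus strand.
Calr: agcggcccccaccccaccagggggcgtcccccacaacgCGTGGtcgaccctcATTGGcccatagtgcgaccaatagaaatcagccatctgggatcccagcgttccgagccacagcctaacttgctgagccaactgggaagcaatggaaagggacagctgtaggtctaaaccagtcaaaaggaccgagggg
Syvn1: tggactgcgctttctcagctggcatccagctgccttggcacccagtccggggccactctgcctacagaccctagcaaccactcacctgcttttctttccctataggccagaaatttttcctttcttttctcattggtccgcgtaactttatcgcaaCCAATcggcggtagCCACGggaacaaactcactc

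The ERSE of 4 of the other 6 genes, those of Hspa5, Canx, Pdia6 and Dnajc3, is printed alone, read in the direction of CCAAT, to show the 9 inner bases, since the outer letters were fixed by the search. Hspa5 encodes BiP, the HSP70 of the ER and a classical target of this response, and its element lies at chr2:34772025-34772043 on the plus strand. The element of Canx lies at chr11:50325800-50325818 on the minus strand, that of Pdia6 at chr12:17266491-17266509 on the plus strand, and that of Dnajc3 at chr14:118937827-118937845 on the plus strand.
Hspa5: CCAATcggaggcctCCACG
Canx: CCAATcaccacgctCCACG
Pdia6: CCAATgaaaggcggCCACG
Dnajc3: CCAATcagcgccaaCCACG

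Hspe1 and Hspd1, which encode the mitochondrial chaperonin, lie on opposite strands, and the Hspe1 window and 1 of the 2 RefSeq windows of Hspd1 contain the same heat shock elements. The other Hspd1 window, chr1:55088194-55088493, begins at a start inside Hspe1 and holds none. The stretch is printed on the plus strand, chr1:55088059-55088076, with the GAA and TTC units in capitals. Hsph1, the HSP110 nucleotide exchange factor, holds 1 match at chr5:149636288-149636300, printed in the direction of GAA on the plus strand.
Hspe1 and Hspd1: TTCtaGAAccTTCcgGAA
Hsph1: GAActTTCcaGAA

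The search covered 3 further elements. ERSE-II, ATTGG followed after 1 base by CCACG, was present in Herpud1 and Dnajb11 and in 0.0366% of all windows. The CARE element TGATGNAA was present in Herpud1 and Trib3 and in 3.97% of windows, and the UPRE element TGACGTGG was in none of the 30 genes and in 0.676% of windows. Of the 8 ER genes with an ERSE, 7 had a positive log2 fold change and 2 rose, with a median of 0.07. Of the 14 ER genes with a window and no ERSE, 9 were positive, 1 rose and 1 fell, with a median of 0.02, and the 3 ER genes without a window were all positive, with 1 that rose and a median of 0.08. Of the 3 genes with an HSE, 1 was positive and none passed the test, with a median of -0.003. Hspa1a, Hspa1b, Dnajb1, Dnaja1 and Hspb1 had a window and no exact HSE match. Of these 5 genes, 4 were positive, with a median of 0.06. The 4 heat shock genes without a window were all positive, with a median of 0.03, and no gene of either set passed. The search took exact letters within the window, so elements with other letters or farther away were not covered. Over all features tested, 4.91% rose and 3.69% fell. The difference between these sets was not tested. Neither Xbp1 nor Rnf13 held any of the 5 elements in its window.

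Among the 14 ER chaperones and folding enzymes, 12 had a positive log2 fold change, 2 rose by the test (14.3%, against 4.91% of all features), and the median was 0.07, against -0.0006 over all features tested. Calr encodes calreticulin, the soluble lectin chaperone that holds newly made glycoproteins in the ER (chr8:84841850-84846934). Its CPM was 335, 325 and 350 in control mice 2, 5 and 10, and 355, 354 and 387 in PLDP mice 17, 22 and 26. All PLDP mice were above all control mice, although control mouse 10 and PLDP mouse 22 lay close together. The mean was 336 ± 12.3 in control mice and 365 ± 18.8 in PLDP mice (SD, n = 3 each). This gave a log2 fold change of 0.12 ± 0.04 (SE, as for all fold changes here), with an adjusted p of 0.449 in edgeR's test. The call was lost without control mouse 2, control mouse 5 or PLDP mouse 26, and the log2 fold change without PLDP mouse 26 was 0.07.

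Hyou1 encodes the large ER chaperone that exchanges nucleotide on BiP (chr9:44379490-44392369). Its CPM was 106, 106 and 112 in the control mice and 111, 114 and 122 in the PLDP mice. The groups overlapped, since PLDP mouse 17 was below control mouse 10. The log2 fold change was 0.10 ± 0.05 (adjusted p = 0.566), and this call was lost with DESeq2, with edgeR's likelihood ratio test, and without control mouse 2, control mouse 5, PLDP mouse 22 or PLDP mouse 26. Without PLDP mouse 26 the log2 fold change was 0.06.

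Canx encodes calnexin, the membrane-bound partner of calreticulin, and had the highest CPM of the ER genes. Its CPM was 379, 377 and 392 in control mice and 374, 393 and 406 in PLDP mice, with a log2 fold change of 0.03 ± 0.04 (adjusted p = 0.876). The groups overlapped throughout, and PLDP mouse 17 was the lowest of all mice. BiP (Hspa5), shown for its central place in the response and chosen after its values were seen, had 262, 254 and 285 CPM in control mice and 251, 275 and 315 in PLDP mice. PLDP mice thus held both the lowest and the highest value, and the log2 fold change was 0.07 ± 0.06 (adjusted p = 0.809). Hsp90b1, the HSP90 of the ER, had a log2 fold change of -0.0009 ± 0.04 (adjusted p = 0.998).

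Dnajb9 (ERdj4), an HSP40 that returns BiP to the sensor IRE1α, had a negative log2 fold change. Its CPM was 46.1, 48.2 and 47.4 in control mice and 44.3, 43.0 and 44.7 in PLDP mice. All PLDP mice lay below all control mice, but the log2 fold change of -0.10 ± 0.05 did not pass the test (adjusted p = 0.612). The other 9 genes of this role (Pdia3, Pdia4, Pdia6, Creld2, Manf, Sdf2l1, Dnajb11, Dnajc3 and Hsp90b1) overlapped between the diets. Pdia4, a disulfide isomerase, had the largest log2 fold change among these, 0.13 ± 0.07 (adjusted p = 0.627), with PLDP mouse 26 highest at 41.0 CPM and control mouse 2 lowest at 33.0 CPM.

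**Figure D2:**
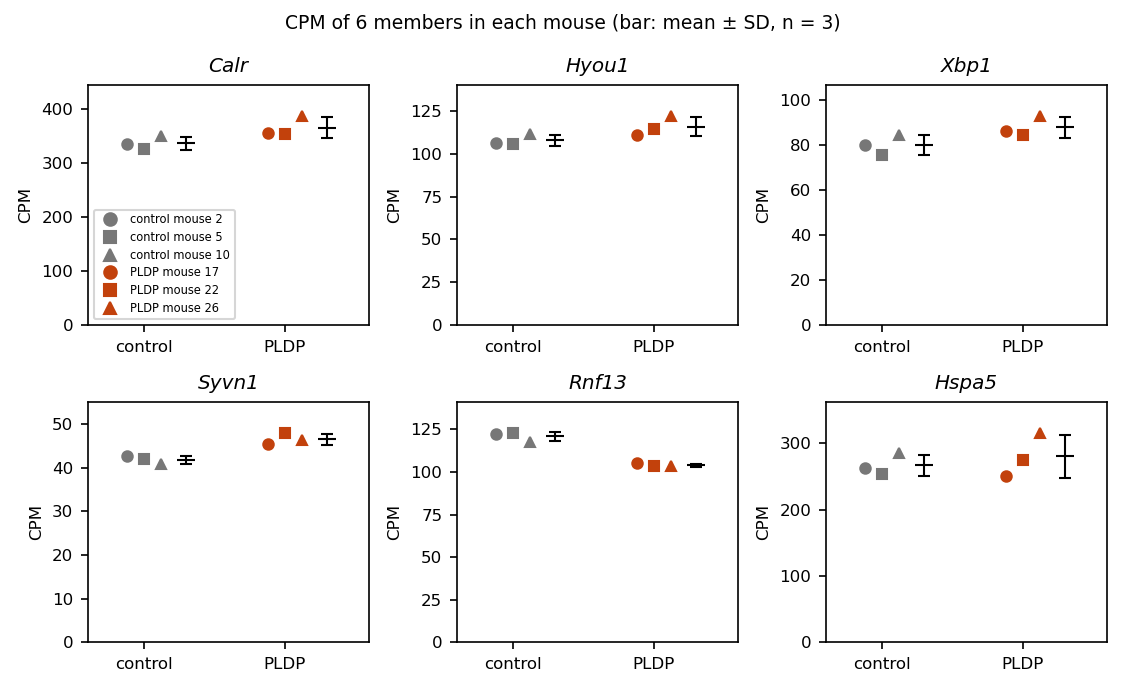
CPM of Calr, Hyou1, Xbp1, Syvn1, Rnf13 and Hspa5 in each of the 6 mice, on axes that start at 0 (gray, control; orange, PLDP; bar, mean ± SD of 3 mice). The 3 PLDP mice lie above the control mice for Calr and Syvn1 and below them for Rnf13, whereas the groups overlap for Hyou1, Xbp1 and Hspa5.

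None of the 3 sensors passed the test, and their log2 fold changes were between -0.04 and 0.05. Atf6, which is cut in the Golgi to release a transcription factor, had 61.3, 67.1 and 66.9 CPM in control mice and 63.7, 65.1 and 68.3 in PLDP mice (adjusted p = 0.972). Ern1, the kinase and ribonuclease that splices Xbp1 mRNA, had 14.2, 14.3 and 14.6 CPM in control mice and 13.3, 16.7 and 14.5 in PLDP mice (adjusted p = 0.929). Eif2ak3, the kinase that slows translation, had 31.7, 31.0 and 29.7 CPM in control mice and 29.8, 30.6 and 29.1 in PLDP mice (adjusted p = 0.900). The groups overlapped for each of them. The control mice lay close together for Ern1, while PLDP mice 17 and 22 were its lowest and highest mice.

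Of the transcription factors downstream, Xbp1 alone rose by the test (chr11:5520659-5525893). Its CPM was 80.1, 75.9 and 84.4 in control mice and 86.4, 84.4 and 93.1 in PLDP mice, a mean of 80.1 ± 4.27 against 88.0 ± 4.56 (SD, n = 3 each). PLDP mouse 22 was level with control mouse 10, and the other PLDP mice were above all control mice. The log2 fold change was 0.13 ± 0.05 (adjusted p = 0.484), and this call was lost without control mouse 2, control mouse 5 or PLDP mouse 26. Counts per gene do not separate the spliced from the unspliced mRNA of Xbp1, so the value is its total.

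Atf4, translated when PERK or its sister kinases are active, had 108, 108 and 103 CPM in control mice and 105, 104 and 105 in PLDP mice (log2 fold change -0.02 ± 0.04, adjusted p = 0.936). Ddit3 had 26.2, 23.8 and 23.2 CPM in control mice and 26.1, 23.6 and 25.9 in PLDP mice (log2 fold change 0.04 ± 0.07, adjusted p = 0.912). Both genes overlapped between the diets. The identifier counted for Ddit3 covers 105 exon bases in M21, inside a larger gene of the same symbol, so the extent of this value is uncertain. Trib3, a pseudokinase induced by Atf4 and CHOP, was near the lower end of detection at 0.558 to 0.776 CPM, or 12 to 17 counts per mouse, and a difference of the size seen in the other genes was not detectable at this depth.

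Of the 3 genes of ER-associated degradation, Syvn1 rose (4.91% of all features rose), and Sel1l and Herpud1 did not pass the test. Rnf13, listed beside them, fell. Syvn1 encodes HRD1, the ubiquitin ligase at the core of the channel that returns misfolded proteins to the cytosol (chr19:6046576-6053712). Its CPM was 42.6, 42.0 and 40.9 in control mice and 45.3, 47.9 and 46.3 in PLDP mice. All PLDP mice were above all control mice, with means of 41.8 ± 0.860 and 46.5 ± 1.31 (SD, n = 3 each). Its log2 fold change of 0.15 ± 0.05 (adjusted p = 0.420) was the largest positive one of the 37 genes. Exons of Mrpl49 overlap Syvn1 on the opposite strand. The libraries were stranded, but whether the counting used strand is not given in the sources used here.

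Sel1l, the partner of HRD1 in this complex, had 154, 147 and 156 CPM in control mice and 142, 160 and 159 in PLDP mice (log2 fold change 0.01 ± 0.05, adjusted p = 0.964). Its PLDP mice thus spanned the control mice on both sides. Herpud1, a scaffold of the same complex, had values between 52.0 and 56.9 CPM in all mice (log2 fold change 0.03 ± 0.05, adjusted p = 0.933).

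Rnf13 encodes a membrane-bound RING ubiquitin ligase of endosomes and lysosomes that has been linked to IRE1α signaling (chr3:57736062-57835233). Its CPM was 122, 123 and 118 in control mice and 105, 103 and 104 in PLDP mice. The groups did not overlap, and the gap between them was wider than the spread within either, with means of 121 ± 2.74 and 104 ± 0.913 (SD, n = 3 each). This gave a log2 fold change of -0.22 ± 0.04 (adjusted p = 0.0785). With all mice, the adjusted p was 0.0279 with DESeq2, 0.00539 with edgeR's likelihood ratio test and 0.00332 without the filter on low counts, and between 0.0769 and 0.0945 under the other 5 alternatives. When 1 mouse was left out, it was 0.00988 without PLDP mouse 17 and between 0.16 and 0.446 otherwise. Rnf13 was placed among these genes when its value was already known, so its rank here is no independent result. Without Rnf13, the ER class had 24 genes, 19 of them positive, and a median log2 fold change of 0.05.

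In the heat shock class, 9 of 12 genes had a positive log2 fold change, and the median was 0.05 over the 12 genes and 0.06 over the 9 cytosolic genes. Most of the median over the 12 genes was lost without PLDP mouse 26, as given below. The lowest adjusted p was 0.626, that of Hsph1, with a log2 fold change of 0.08 ± 0.04. Hspa8 (HSC70), the constitutive cytosolic HSP70, had 1854, 1754 and 1910 CPM in control mice and 1845, 1836 and 1939 in PLDP mice (log2 fold change 0.03 ± 0.04, adjusted p = 0.892). Hsp90ab1, the constitutive HSP90, had 1279, 1258 and 1279 CPM in control mice and 1265, 1276 and 1368 in PLDP mice (log2 fold change 0.03 ± 0.04, adjusted p = 0.839). Both genes overlapped between the diets, and PLDP mouse 26 was the highest mouse for each.

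Hspa1a and Hspa1b, the stress-induced HSP70 genes, have coding sequences that are 99.6% identical, with 8 different bases of 1926 aligned. How reads shared by the copies were assigned is not given in the sources used here, so each value is uncertain. Hspa1a had 23.1, 20.96 and 22.7 CPM in control mice and 20.1, 24.8 and 25.8 in PLDP mice (adjusted p = 0.855). Hspa1b had 14.2, 12.5 and 12.8 CPM in control mice and 11.9, 14.9 and 14.8 in PLDP mice (adjusted p = 0.883). For both copies, PLDP mouse 17 was the lowest of the 6 mice, and the sum of the copies was 35.4 ± 1.97 CPM in control mice and 37.4 ± 4.70 in PLDP mice (SD, n = 3 each).

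Hsp90aa1, the stress-responsive HSP90, the HSP40 co-chaperones Dnajb1 and Dnaja1, and the small heat shock protein gene Hspb1 had log2 fold changes between -0.03 and 0.06, and their groups overlapped. Hspd1 (HSP60) had 138, 150 and 145 CPM in control mice and 141, 148 and 144 in PLDP mice (log2 fold change -0.003 ± 0.04, adjusted p = 0.993). Hspe1 (HSP10) had 50.5, 47.8 and 48.3 CPM in control mice and 47.7, 47.6 and 45.3 in PLDP mice (log2 fold change -0.06 ± 0.05, adjusted p = 0.809). The Hspe1 groups did not overlap, but control mouse 5 and PLDP mouse 17 had nearly the same value. Hspd1 and Hspe1 overlap on opposite strands, and M21 names 5 and 6 processed pseudogenes after them, so reads could be divided among several loci.

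Hsf1 had 35.9, 38.4 and 37.4 CPM in control mice and 39.0, 39.2 and 40.7 in PLDP mice. All PLDP mice were above all control mice, and the log2 fold change of 0.09 ± 0.06 did not pass the test (adjusted p = 0.703). Counting Calr, Syvn1 and Hsf1 upwards and Rnf13, Dnajb9 and Hspe1 downwards, the diets did not overlap in 6 of the 37 genes (16.2%), against 14.2% of all features tested, a share near the background.

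ER and cytosolic members of the same chaperone family were set against each other per length of exon. Per kilobase, the highest levels were 432 CPM for Hspa8, 429 for Hsp90ab1, 277 for Hsp90aa1 and 122 for Calr. The ratio of Hspa5 to Hspa8 per kilobase was 0.148 ± 0.0038 in control mice and 0.152 ± 0.0130 in PLDP mice (SD, n = 3 each). By mouse it was 0.144, 0.147 and 0.152 in control mice and 0.138, 0.152 and 0.165 in PLDP mice. The PLDP mice thus held both the lowest and the highest ratio. The ratio of Hsp90b1 to Hsp90ab1 was 0.170 ± 0.0052 and 0.166 ± 0.0031, and that of Dnajb11 to Dnajb1 was 0.905 ± 0.0380 and 0.915 ± 0.110. The ratio of Hsp90b1 to Hsp90aa1 was 0.264 ± 0.0076 and 0.258 ± 0.0054. The differences between the diets were 0.0044, -0.0041, 0.010 and -0.006 for these pairs, in this order. Each was smaller than the larger of the SDs of its pair. Those of Hspa5 and of both Hsp90b1 pairs were larger than the smaller SD, and none was tested.

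For the ER class and the cytosolic genes, the SD among PLDP mice was larger than the difference between the diets. The mean of log2 CPM over the ER class, relative to the control mice, was 0.001, -0.035 and 0.034 in control mice 2, 5 and 10, and -0.021, 0.033 and 0.089 in PLDP mice 17, 22 and 26. Over the 9 cytosolic genes it was 0.008, -0.051 and 0.043 in the control mice and -0.046, 0.057 and 0.127 in the PLDP mice. In both, PLDP mouse 26 was the highest mouse, and PLDP mouse 17 lay within the range of the control mice. PLDP mouse 26 had the highest CPM of all mice for 21 of the 37 genes (56.8%, against 16.4% of all features), and PLDP mouse 17 had the lowest for 11 (29.7%, against 21% of all features) and the highest for 1 (2.70%, against 21.7% of all features). Control mouse 5 had the lowest for 10 (27.0%, against 15.95% of all features). Within each diet, the mean over the cytosolic genes ranked the mice in the order in which that over the ER class did. The mean over the 2 mitochondrial genes was lowest in PLDP mouse 26, at -0.057. Hspe1 was lowest in that mouse, whereas Hspd1 was lowest in control mouse 2.

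**Figure D3:**
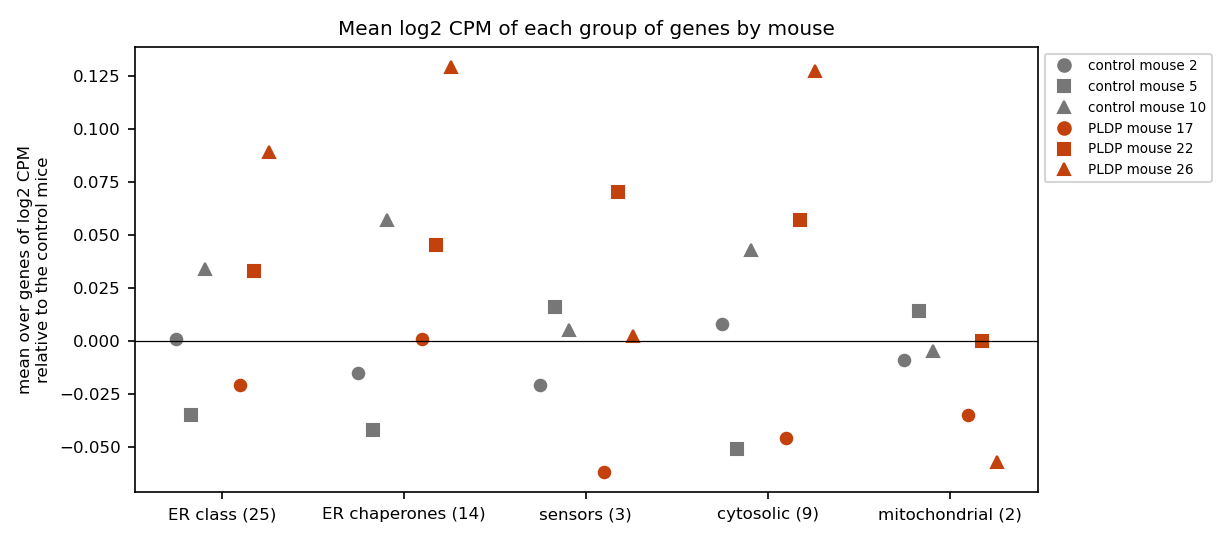
Mean over the genes of a group of log2 CPM relative to the control mice, for the ER class (25 genes), its chaperones (14), the sensors (3), the cytosolic heat shock genes (9) and the mitochondrial chaperonin (2); each point is 1 mouse. PLDP mouse 26 is highest for the ER class at 0.089 and for the cytosolic genes at 0.127, and lowest for the mitochondrial genes at -0.057.

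Rnf13 and Syvn1 passed the test whichever of the 6 mice was left out, and Calr, Hyou1 and Xbp1 did not. Without PLDP mouse 26, without control mouse 2 or without control mouse 5, Syvn1 was the 1 gene that rose, against 3.91%, 3.36% and 3.77% of all features in these fits, and Calr, Hyou1 and Xbp1 did not pass. Their log2 fold changes stayed positive. They were 0.11, 0.09 and 0.13 without control mouse 2, 0.09, 0.09 and 0.10 without control mouse 5, and 0.07, 0.06 and 0.09 without PLDP mouse 26. A fit without 1 mouse also has fewer mice to pass the test with. Hyou1 was also lost without PLDP mouse 22. Without PLDP mouse 17, 11 of the 37 genes rose, against 6.86% of all features in that fit. The 7 added genes were Hspa5, Pdia4, Manf, Dnajc3, Hspa1a, Hsph1 and Dnajb1, 3 of them of the heat shock class. Without control mouse 10, 6 genes rose (4.93% of all features in that fit). The median log2 fold change without PLDP mouse 26 was 0.004 in the ER class and 0.003 in the heat shock class.

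**Figure D4:**
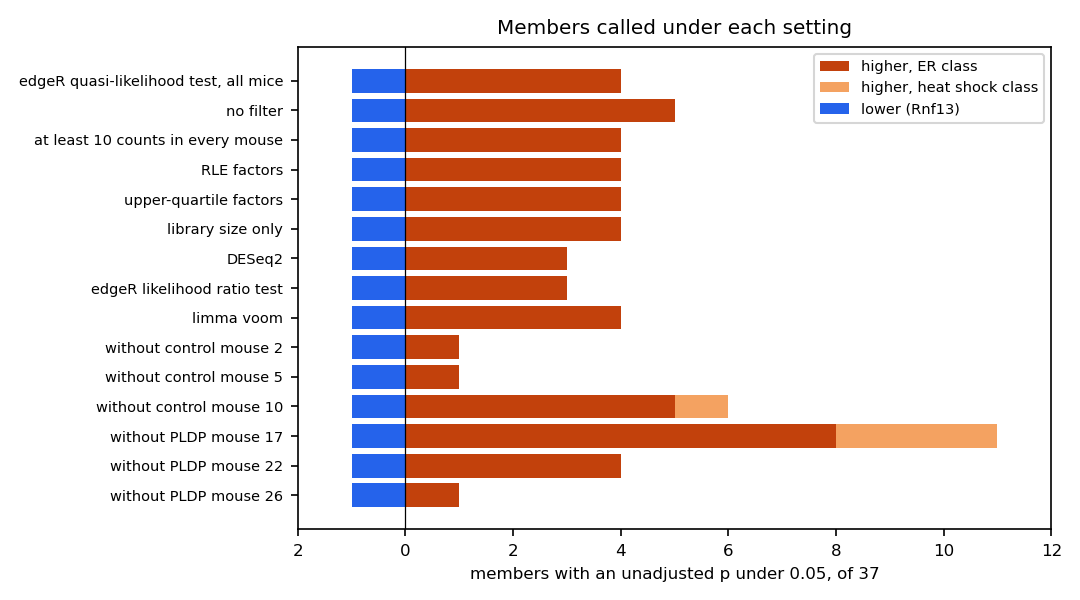
Number of the 37 genes with an unadjusted p under 0.05, higher to the right and lower to the left of 0, with all mice, under each alternative and without each mouse. The number of higher genes was between 3 and 5 under the alternatives with all mice, and between 1 and 11 when 1 mouse was left out, and Rnf13 was the lower gene in every bar.

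Other genes of these pathways, 132 genes in 7 lists of which 129 were tested, were examined in the same fit. Of the 129, 7 rose (5.43%, against 4.91% of all features) and 2 fell (1.55%, against 3.69%), and the median log2 fold change was -0.01. Among 23 other ER folding genes, Dnajc1, a membrane HSP40 of the ER, rose by 0.25 ± 0.07 on the log2 scale (adjusted p = 0.261) and Uggt2, related to the glycoprotein folding sensor, by 0.15 ± 0.06 (adjusted p = 0.473). Among 22 other degradation genes, Ufd1, a cofactor of the p97 ATPase that pulls proteins from the ER, fell by 0.12 on the log2 scale (adjusted p = 0.493).

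Of 28 other genes of the unfolded protein and integrated stress responses, Map3k5 (ASK1), a stress kinase downstream of IRE1α, rose by 0.20 ± 0.06 (adjusted p = 0.319). Ddit4 (REDD1), a stress-induced inhibitor of mTORC1, fell by 0.18 (adjusted p = 0.321). Dnajb5 rose by 0.13 ± 0.04 among 20 further HSP70, HSP40 and small heat shock genes (adjusted p = 0.368). Among 20 HSP90 co-chaperones, BAG proteins and HSF genes, Bag3, a co-chaperone of HSP70, rose by 0.20 ± 0.08 (adjusted p = 0.493) and Fkbp5, a co-chaperone of HSP90 at the glucocorticoid receptor, by 0.24 ± 0.07 (adjusted p = 0.306). The diets overlapped for Fkbp5 and did not overlap for the other named genes of these lists.

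None of the 8 genes of the TRiC chaperonin, which folds actin and tubulin, passed the test, and 7 had a negative log2 fold change. Of 11 relatives of Rnf13 with a protease-associated domain and a RING, 8 were tested. Rnf150 rose by 0.13 ± 0.05 (adjusted p = 0.522), and none fell. The lowest adjusted p in the 7 lists was 0.261, that of Dnajc1.

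**Figure D5:**
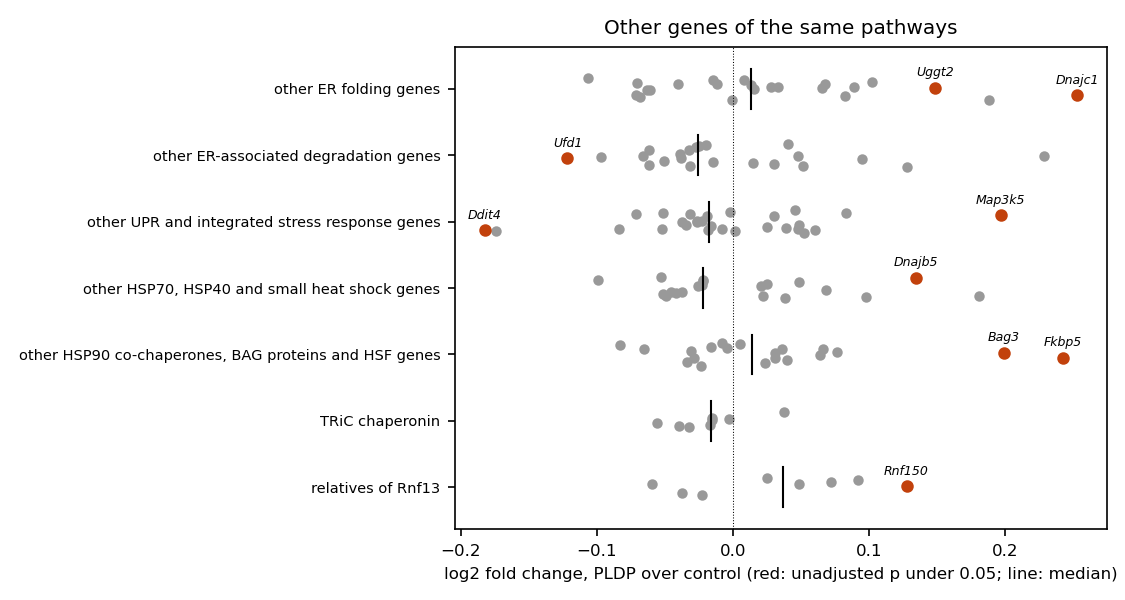
Log2 fold change (PLDP over control) of each tested gene in the 7 lists of other pathway genes, with an unadjusted p under 0.05 in red and the median of a list as a line. The 9 named genes lie between -0.18 and 0.25, and the list medians lie between -0.03 and 0.04.

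Markers of cell types and regions were read beside these results, because in whole brain fewer cells of a type and less RNA per cell cannot be told apart. Markers of neurons, astrocytes, oligodendrocytes and microglia were present in every mouse, and of their tested genes 1 of 5, 1 of 6, 2 of 6 and 1 of 6 fell and none rose. A positive log2 fold change was held by 3 of 5, 1 of 6, 0 of 6 and 0 of 6 of them. The shares of all features tested, to be read beside every count in this paragraph, were 4.91% that rose and 3.69% that fell. Of 6 endothelial genes 2 rose, and of 5 blood genes none passed the test. Of 8 tested hindbrain genes, 7 were lower in the PLDP mice by the test, and their summed level was 138 to 150 CPM in control mice and 75.6 to 106 in PLDP mice. All 6 choroid plexus genes had a negative log2 fold change and 2 fell, with a summed level of 745 to 799 CPM in control mice and 584 to 740 in PLDP mice. Of 5 nuclear noncoding RNAs, 4 rose (5760 to 6075 CPM in control mice, 6281 to 6813 in PLDP mice). Of 10 immediate early genes, 9 were positive and 3 rose. The 3 that rose, Fosb, Arc and Dusp1, were each lowest in PLDP mouse 17 and highest in PLDP mouse 26. Arc had 184 CPM in PLDP mouse 17 and 297 CPM in PLDP mouse 26. Of the 37 genes, Hspa5, Hsp90b1, Pdia3, Canx, Hspa1a, Dnajb1 and Dnaja1 had the same lowest and highest mice, and the others did not. The share of all features with this pair of mice was not computed. The part of these differences in the values of the 37 genes was not tested.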

How the data were processed

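RNA was measured in whole brains of 3 control and 3 PLDP mice, grouped by their labels. The authors deposited 1 file of unnormalized read counts per mouse. The submitters' processing notes name cutadapt 2.9, HISAT2 2.2.0, featureCounts 2.6.0 and DESeq2 1.6.3, and the builds GRCm38 and GRCh38 with no roles. Libraries were made with a stranded kit, but the annotation, the strand setting of the counting and the treatment of shared reads are not given in the sources used here. Symbols came from GENCODE M21, in which 54777 of 55034 Ensembl identifiers were found, and 5320 numbered features were kept in the tests.

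Counts were analysed with edgeR 4.0.16 in R 4.3.3: features were filtered by filterByExpr (minimum count 10, minimum total 15), scaled by TMM, and fitted by glmQLFit on diet alone. P-values of glmQLFTest were adjusted by Benjamini-Hochberg over all 18580 features. Called means an unadjusted p under 0.05, the threshold of the study. P-values set the difference between the diets against the spread among mice of the same diet, as estimated by edgeR. Simulated counts with 200 genes of the 18580 changed 2-fold gave 198 of these genes, and 12 unchanged ones, at the adjusted threshold of 0.05. The called members differed by far less than 2-fold, so this does not measure how often differences of their size are found. CPM per kilobase used the exon length in M21. Motifs were searched as exact letters.

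Alternatives were limma 3.58.1 voom, DESeq2 1.42.0, edgeR's likelihood ratio test, scaling by library size alone, by upper quartiles or by relative log expression, a filter of 10 counts per mouse or none, and leaving out each mouse. The members and lists were chosen with earlier results of these data known. CPM per mouse are given for called genes, genes without overlap, the 2 highest of each role, the sensors, Atf4, Xbp1, Ddit3, Hspa1a, Hspa1b and Hsf1, and pathway genes are named where called.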

Additional observations from a re-analysis of the deposited data

How the results depend on the processing

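Calr, Xbp1, Syvn1 and Rnf13 passed the test under all 8 alternatives with all mice, and Hyou1 under 6 of them. The number of features called, 1598 in edgeR's quasi-likelihood test, was 926 with DESeq2, 2360 without a filter, between 1513 and 1614 under the other 6 alternatives with all mice, and between 1133 (without control mouse 2) and 2365 (without PLDP mouse 17) when 1 mouse was left out. When 1 mouse was left out, the number of members that rose was between 1 and 11. Members near 0 changed sign: Hsp90b1 to 0.00404 and Hspd1 to 0.0022 with upper-quartile factors. Over the fits without 1 mouse, log2 fold changes ranged as follows for the members that changed sign. The range was -0.023 to 0.142 for Hspa5, -0.036 to 0.032 for Hsp90b1, -0.037 to 0.033 for Pdia3, -0.037 to 0.058 for Pdia6, -0.00123 to 0.136 for Dnajc3 and -0.00628 to 0.058 for Herpud1. It was -0.021 to 0.070 for Sel1l, -0.031 to 0.034 for Atf6, -0.051 to 0.126 for Ern1 and -0.202 to 0.00687 for Trib3. In the heat shock class it was -0.00697 to 0.054 for Hspa8, -0.00309 to 0.055 for Hsp90ab1, -0.010 to 0.132 for Dnajb1, -0.016 to 0.190 for Hspb1 and -0.036 to 0.026 for Hspd1. The cause of these changes was not tested. No paired analysis was possible because the mouse numbers of the diets are not shared. Counts were lowest for Trib3, at 12 to 17 per mouse, and the next lowest were those of Hspb1, at 167 to 218.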
